A study of Mus musculus with 8 samples.

Results

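Expression of 10 NRF2 antioxidant genes was examined in tumor-associated macrophages (TAMs) of mice with and without working endosomal TLRs, with and without an antibody against the scavenger receptor MARCO (αMARCO). The genes were Nfe2l2, Keap1, Nqo1, Gclc, Gclm, Txnrd1, Srxn1, Slc7a11, Gsr and Prdx1, taken as a list of names that was set with earlier results of these data known, and they are 10 of the 26939 genes in the deposited tables. All 10 are protein coding, and all 10 passed the low-count filter in each of the 5 comparisons described here. No gene of the 10 met the call rule in any of these comparisons when every library was used. Of all genes tested, 13% met it between control mice with and without working endosomal TLRs. For αMARCO in mice with working endosomal TLRs, 20.7% did. In each of the other comparisons 0% of all genes met it, so the lack of calls there says nothing about the 10. The rule asked for an adjusted P of 0.05 or less and, in either direction, a log2 fold change of 0.5 or more.

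NRF2, the protein of Nfe2l2, is a transcription factor that KEAP1 holds in the cytoplasm and hands to a ubiquitin ligase under resting conditions. Oxidants and electrophiles modify cysteines of KEAP1, NRF2 then escapes degradation, enters the nucleus with a small MAF partner and binds the antioxidant response element of its targets. Its control is therefore largely at the protein level, which mRNA counts do not measure. In macrophages the pathway supplies glutathione and thioredoxin systems and is known to restrain inflammatory gene expression.

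The 8 libraries were bulk RNA-seq of TAMs sorted on day 21 from tumors of EO771, a mouse breast cancer line grown in the mammary fat pad. The sort gate took viable cells that were positive for CD45, CD11b and F4/80 and negative for Gr-1. The mice, 8 to 14 weeks old, were WT or homozygous for Unc93b1 3d (3d/3d), and each genotype was left as control or given αMARCO, which made 4 groups of 2 libraries. Treated mice received 100 µg of αMARCO (rat IgG1, clone ED31) every 3 days from day 3 to day 12. The control mice are labelled untreated, their library names say PBS, and the protocol names an isotype antibody, so what they received is not settled. The 3d allele is a missense change in UNC93B1, the chaperone that carries TLR3, TLR7 and TLR9 to endosomes, and it is present in every cell of the animal. The genotype of 3d/3d control replicate 2 is spelled 3d/4d in one label and 3d/3d in its title. Each control library was pooled from 3 mice, and no such statement covers the αMARCO libraries, so P values measure the spread between 2 libraries.

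Library totals ran from 15182618 to 26411936 counts, so that 3 counts correspond to 0.116 to 0.204 CPM (CPM, counts scaled to library totals that TMM had adjusted). Replicate 2 of 3d/3d αMARCO stood apart: its score on the first principal component, which held 33.7% of the variance, was -98.7, against -20.6 to 33.1 for the other 7. It lay 132 units from its replicate in log2 CPM distance, where the other pairs lay 56.1 to 74.6 apart, and it held 17094 genes with at least 3 counts, against 18605 to 20164. Comparisons, correlations and the order of levels that use the 3d/3d αMARCO group are therefore also given without it. The macrophage markers Adgre1 and Csf1r were at 331 to 720 CPM and 904 to 1131 CPM in all libraries. Cd3e was at 4.58 and 8.81 CPM in WT control and at 0.316 to 1.57 elsewhere, and the summed level of 16 T cell markers was 160 and 184 CPM in WT control against 11.6 to 35.5 elsewhere. Summed markers of 12 dendritic cell genes were at 496 and 901 CPM in WT control against 113 to 161. The share of mitochondrial counts was 1.03% to 1.25% in the control libraries and 1.39% to 2.74% under αMARCO. Summed markers of 10 nonclassical monocyte genes were at 1888 to 2342 CPM in WT libraries and 717 to 1295 CPM in 3d/3d. Of these 10, 8 were higher in WT than in 3d/3d between controls, and 8 under αMARCO. Cx3cr1 went the other way, with group means of 15.7 against 29.3 CPM in controls and 12.5 against 38.5 under αMARCO. Nr4a1, a large part of the sum, was at 805 and 790 CPM under αMARCO in WT and 3d/3d. Summed markers of 12 cycling genes were at 264 to 394 CPM under αMARCO against 470 to 604 CPM in controls. Summed markers of 10 NK cell genes were at 90.2 and 103 CPM in WT control against 39.6 to 61.0 elsewhere, with Nkg7 at 14.8 and 19.9 CPM against 0.451 to 2.45 and Ncr1 at or under 0.942 in all 8. The 11 epithelial tumor cell markers summed to 40.5 to 117 CPM, with Krt8 at 22.4 to 42.3, Cdh1 at 7.33 to 61.6 and Epcam at or under 1.42. The 10 stroma markers summed to 376 and 395 CPM in WT control against 166 to 313 elsewhere. Among them, Pecam1 had group means of 201 CPM in WT control, 106 in WT αMARCO, 26.5 in 3d/3d control and 26.8 in 3d/3d αMARCO. Of the 10 stroma markers, 2 were higher in WT control than in 3d/3d control, and their median log2 fold change was -0.81. The part of these differences in the results below was not tested. In sorted bulk samples, fewer cells of a type and less RNA per cell cannot be told apart. Unc93b1 itself was at 539 to 660 CPM in 3d/3d libraries and 707 to 965 CPM in WT, which does not check a missense genotype.

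To show what the promoters of these genes carry, RefSeq windows of 300 bases (250 before to 50 after each start, GRCm38.p6) were searched on both strands for 3 motifs. The windows matched 8 of the 10 genes, with 3 windows for Txnrd1 and 10 in all. The core antioxidant response element, TGACNNNGC, was present in 5 of these 10 windows, 1 each of Nfe2l2, Gclm, Txnrd1, Srxn1 and Prdx1. It was present in 12.4% of all 32851 promoter windows. An AP-1 site, TGANTCA, was present in 2 of the 10 windows, those of Srxn1 and Prdx1, and in 7.81% of all windows. The ATF4 element TGATGNAA was found in 1 of the 10, that of Slc7a11, and in 3.97% of all windows. With the 250 bases before the start alone, the antioxidant response element was left in 4 of the 10 windows (10.2% of all windows), since the match in Srxn1 lies after the start. These are matches of letters, and a window without one says nothing of binding elsewhere.

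The stretches that hold the matches are given below 5′ to 3′ on the strand of the gene, with the matched letters in capitals and up to 30 bases on each side. They show that the element sits in the opposite orientation in Gclm, Txnrd1 and Prdx1, where it reads GCNNNGTCA. The first 3 and the last carry the antioxidant response element, Srxn1 carries 2 AP-1 sites and Slc7a11 carries 2 ATF4 elements facing each other.
Nfe2l2 (chr2:75704865-75704913, minus strand): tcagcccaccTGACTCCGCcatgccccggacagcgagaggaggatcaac
Gclm (chr3:122245393-122245461, plus strand): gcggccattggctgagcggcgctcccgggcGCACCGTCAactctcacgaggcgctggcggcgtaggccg
Txnrd1 (chr10:82859084-82859152, plus strand): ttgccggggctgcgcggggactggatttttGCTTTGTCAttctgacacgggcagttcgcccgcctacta
Srxn1 (chr2:152105392-152105515, plus strand): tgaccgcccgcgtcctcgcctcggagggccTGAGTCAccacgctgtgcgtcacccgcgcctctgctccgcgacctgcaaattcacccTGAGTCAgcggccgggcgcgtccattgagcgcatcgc
Slc7a11 (chr3:50443623-50443709, minus strand): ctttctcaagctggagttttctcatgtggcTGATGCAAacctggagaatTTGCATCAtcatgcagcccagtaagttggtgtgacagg
Prdx1 (chr4:116685436-116685504, plus strand): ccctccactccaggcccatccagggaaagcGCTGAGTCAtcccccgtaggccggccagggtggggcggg

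The Prdx1 stretch is the one member window in which the antioxidant response element and an AP-1 site share letters, an arrangement found in 0.454% of all windows. The Txnrd1 stretch lies before the second of its 3 RefSeq starts, inside the annotated gene and outside its exons. The Nfe2l2 stretch touches an exon of the neighbouring E030042O20Rik, and the other stretches touch no annotated exon.

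Levels were compared between genes per length, on the deposited FPKM scale. Prdx1, which encodes a peroxiredoxin that reduces hydrogen peroxide, was the highest of the 10 in every group, with group means of 129 to 162 FPKM. Nfe2l2 came second at 53.5 to 78.4 FPKM, and Gsr, the glutathione reductase, next at 24.7 to 32.9 FPKM. In 3d/3d control Gsr overlapped Srxn1. It also just overlapped Txnrd1 there, with a lowest Gsr value of 20.486 and a highest Txnrd1 value of 20.496 FPKM. Srxn1 and Txnrd1 changed places between groups at 13.6 to 24.3 FPKM. They overlapped in WT control and WT αMARCO, where their order was within their spread. Keap1 followed at 13.1 to 15.3 FPKM and overlapped Txnrd1 in 3d/3d αMARCO and Gclc in WT αMARCO. Gclc, Gclm and Slc7a11 took the next places with means of 6.91 to 13.7, 3.44 to 5.97 and 2.71 to 4.19 FPKM. Nqo1 was last at 0.358 to 0.916 FPKM. All 40 ranks, 10 genes in 4 groups, were the same when CPM was divided by gene length instead. With replicate 1 alone, the 10 ranks in 3d/3d αMARCO did not change, although Gclm (2.95 FPKM) and Slc7a11 (2.92 FPKM) were then close.

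**Figure D1:**
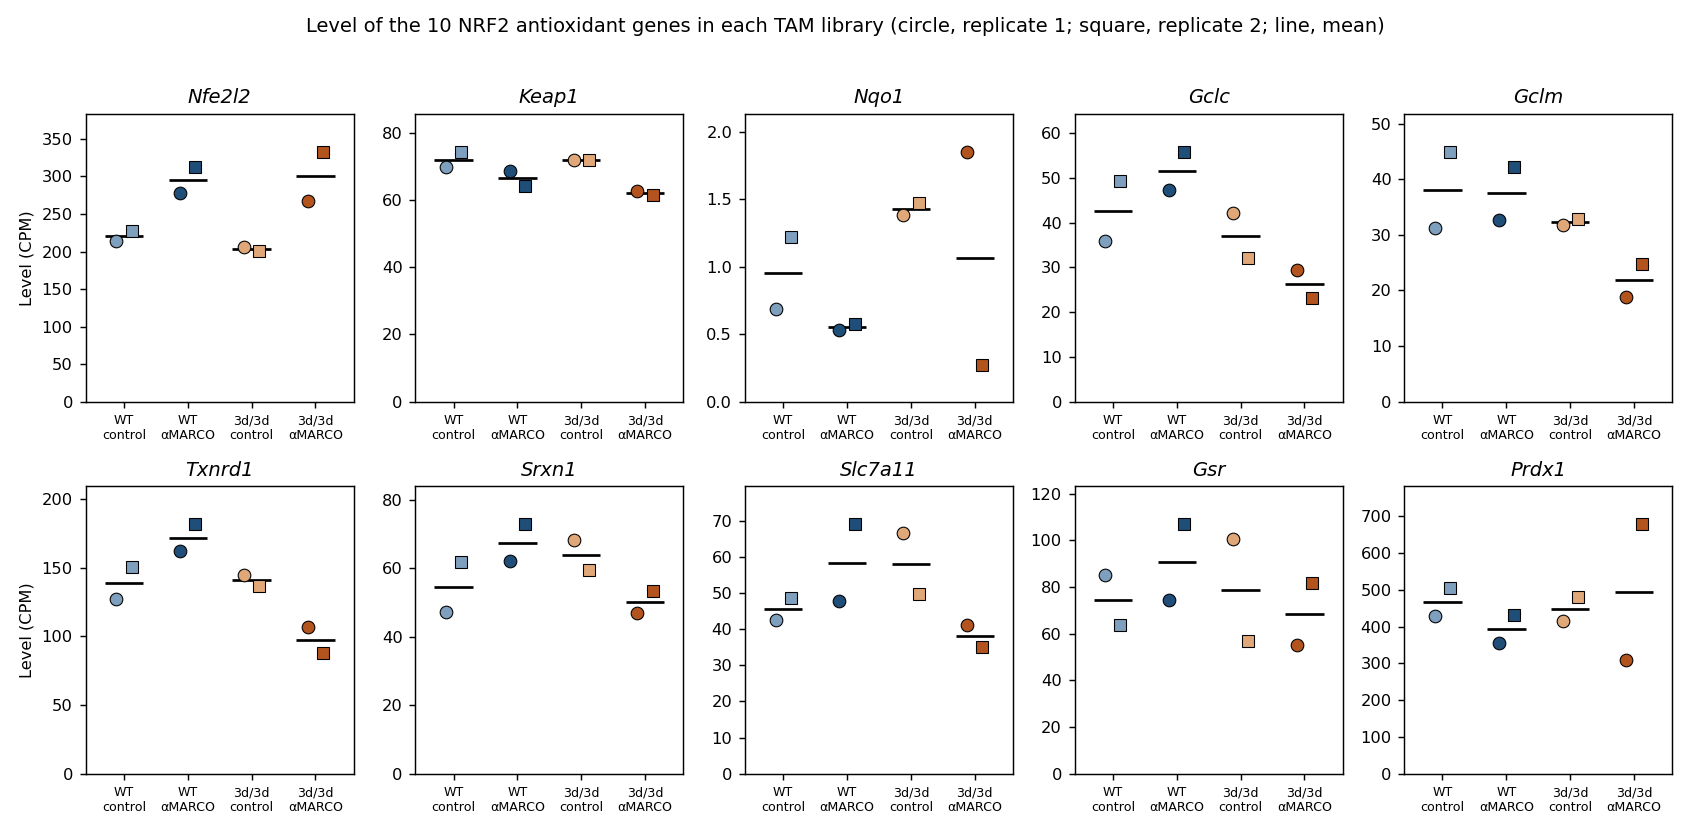
CPM of each gene in each of the 8 libraries (circles, replicate 1; squares, replicate 2), with the mean of each group of 2 as a line. Nfe2l2 is higher under αMARCO in both genotypes (267 to 333 CPM against 201 to 228), while Gclc, Gclm and Txnrd1 are lowest in the 2 libraries of 3d/3d αMARCO.

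Nfe2l2, the transcription factor gene (chr2:75675513-75704641), was the member with the smallest adjusted P for treatment of WT mice. It stood at 214 and 228 CPM in WT control, 278 and 312 in WT αMARCO, 206 and 201 in 3d/3d control, and 267 and 333 in 3d/3d αMARCO. Each αMARCO library was above each control library, in both genotypes. In WT the log2 fold change was 0.43 (SE 0.09, adjusted P = 0.00496 by edgeR's quasi-likelihood test), which passed the adjusted P but stayed under the fold threshold. In 3d/3d it was 0.57 (SE 0.24, adjusted P = 0.823). Without 3d/3d αMARCO replicate 2 it was 0.40 (adjusted P = 0.105), and without replicate 1 it was 0.72. The test of the difference between the αMARCO effects gave -0.14 for Nfe2l2 (SE 0.23, adjusted P = 0.747), so a difference between genotypes was not detectable.

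Keap1, the NRF2 repressor (chr9:21229730-21239361), had the smallest range of group mean log2 CPM among the 10, at 0.21. It was at 69.7 and 74.3 CPM in WT control, 68.6 and 64.3 in WT αMARCO, 71.9 and 71.8 in 3d/3d control, and 62.6 and 61.5 in 3d/3d αMARCO. The treated libraries were the lower ones in both genotypes, by log2 fold changes of -0.11 (SE 0.08, adjusted P = 0.331) in WT and -0.20 (SE 0.20, adjusted P = 0.828) in 3d/3d. An antisense gene, Gm16754, overlaps Keap1 with 47 to 147 counts, against 905 to 1666 for Keap1, and the strand setting of the counting is not given in the sources used here.

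Of the members that serve glutathione, Gclc, Gclm and Slc7a11 had their 2 lowest values in the treated 3d/3d libraries, and Gsr did not. Gclc (chr9:77754535-77794485) encodes the catalytic subunit of glutamate-cysteine ligase, which catalyses the first and rate-limiting step. It was at 35.9 and 49.3 CPM in WT control, 47.3 and 55.8 in WT αMARCO, 42.1 and 32.2 in 3d/3d control, and 29.3 and 23.2 in 3d/3d αMARCO. The control groups overlapped, and the treated groups did not, with both 3d/3d αMARCO libraries below all other 6. Gclm (chr3:122245557-122270732), the modifier subunit of the same enzyme, was at 31.3 and 45.0 CPM in WT control, 32.7 and 42.2 in WT αMARCO, 31.7 and 32.8 in 3d/3d control, and 18.9 and 24.8 in 3d/3d αMARCO. Again the 2 lowest libraries were those of 3d/3d αMARCO. Slc7a11 (chr3:49892526-50443614), the light chain of the transporter that brings in cystine for glutathione, was at 42.5 and 48.5 CPM in WT control, 47.7 and 69.1 in WT αMARCO, 66.4 and 49.8 in 3d/3d control, and 41.3 and 35.0 in 3d/3d αMARCO. Its 2 lowest libraries were the same, and the WT αMARCO libraries differed from each other by more than the group means did. Gsr (chr8:33652523-33698163), which recycles oxidised glutathione, was at 85.2 and 63.7, 74.2 and 107, 101 and 56.8, and 55.2 and 81.7 CPM in the same order of groups. Its replicates lay far apart, and all groups overlapped. Gss, which encodes glutathione synthetase and is no member, had both its lowest (9.70 CPM) and its highest value (14.1 CPM) in 3d/3d αMARCO.

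Txnrd1, Srxn1 and Prdx1 belong to the thioredoxin and peroxiredoxin system. Txnrd1 (chr10:82833951-82897712), the cytosolic thioredoxin reductase, was at 127 and 150 CPM in WT control, 162 and 182 in WT αMARCO, 145 and 137 in 3d/3d control, and 107 and 88.1 in 3d/3d αMARCO. Both WT αMARCO libraries were above, and both 3d/3d αMARCO libraries below, every control library. Eid3 overlaps Txnrd1 on the same strand with 33 to 173 counts, against 1295 to 4718 for Txnrd1. Srxn1 (chr2:152105516-152111376), the sulfiredoxin that repairs over-oxidised peroxiredoxins, was at 47.2 and 61.8, 62.1 and 73.0, 68.4 and 59.6, and 46.8 and 53.5 CPM in the same order. The treated groups did not overlap, with WT the higher. Prdx1 (chr4:116685544-116700822) was at 428 and 506, 354 and 432, 414 and 481, and 310 and 679 CPM. The last pair holds both the lowest and the highest of the 8 values, so that group gives no direction. Nqo1 (chr8:107388225-107403206), a quinone reductase widely read as an NRF2 target, had 4 to 41 counts per library, or 0.272 to 1.85 CPM. Its lowest and highest libraries were also the pair of 3d/3d αMARCO, with 4 and 41 counts.

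**Figure D2:**
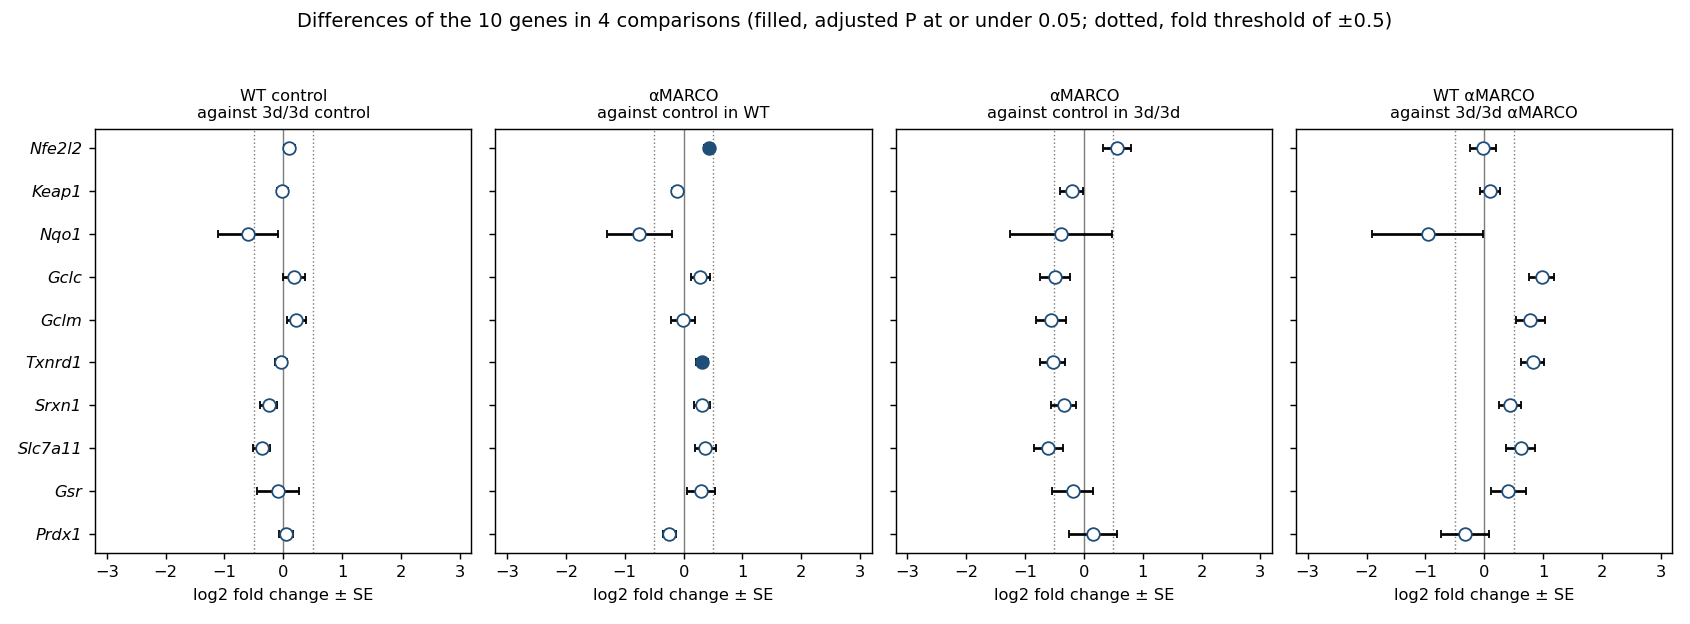
Log2 fold change (first group minus second) with its SE for each gene in 4 comparisons of 2 against 2 libraries. Filled points mark an adjusted P of at most 0.05. Nfe2l2 and Txnrd1 reached it for αMARCO in WT, as did 35.1% of all genes tested. Dotted lines mark the fold threshold of 0.5 in either direction.

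Between the control groups, which ask what the Unc93b1 genotype does without αMARCO, no member met the call rule. The log2 fold changes of WT over 3d/3d ran from -0.60 (Nqo1, SE 0.51) to 0.22 (Gclm, SE 0.17), with a median of -0.02, next to -0.00363 over all 15600 genes tested. Of all genes 13% were called, 6.58% higher and 6.4% lower in WT. The groups did not overlap in 3 of 10 members, Nfe2l2, Nqo1 and Slc7a11, against 63.1% of all genes. Slc7a11 had the smallest P of the 10, with -0.37 (SE 0.15, adjusted P = 0.122), and was called at -0.57 (adjusted P = 0.0165) without 3d/3d control replicate 2. In that fit 11% of all genes were called, and 1 library stood for 3d/3d control. The WT control libraries are those with the higher summed T cell, NK cell, dendritic cell and B cell markers. The 8 B cell markers summed to 111 and 160 CPM in WT control against 27.7 and 26.4 in 3d/3d control. Of the 4 tested, 3 were higher in WT control. The 10 neutrophil markers summed to 343 and 322 CPM against 269 and 232, and all 8 tested were higher in WT control.

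For αMARCO treatment of WT mice, the log2 fold changes were positive for 6 members and negative for 4, with a median of 0.29, against -0.01 over the 15630 genes tested. None was called, while 20.7% of all genes were, 8.91% higher and 11.8% lower. The groups did not overlap in 5 of 10 members, against 70.9% of all genes. Beside Nfe2l2, Txnrd1 passed the adjusted P but not the fold threshold, at 0.32 (SE 0.10, adjusted P = 0.0344). These 2 of 10 members stand beside 35.1% of all genes that passed the adjusted P alone. Slc7a11 (0.37, SE 0.18), Srxn1 (0.32, SE 0.14), Gsr (0.29, SE 0.24) and Gclc (0.28, SE 0.16) had adjusted P values of 0.111 to 0.413, and Gclm was at -0.01 (SE 0.20). Keap1, Prdx1 (-0.24, SE 0.12) and Nqo1 (-0.75, SE 0.56) were on the lower side with adjusted P values of 0.146 to 0.331. Single libraries decided calls here. Without WT control replicate 2, Gclc and Srxn1 were called, at 0.52 each, where 23.6% of all genes were. Without WT αMARCO replicate 1, Nfe2l2 was called at 0.52 and Slc7a11 at 0.62, where 11.8% of all genes were. In each of these fits 1 library stood for its group, and 2 of 10 members is near the share of all genes.

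In 3d/3d mice most members were below the control level after αMARCO, and the test called no gene at all. Slc7a11 (-0.60, SE 0.24), Gclm (-0.56, SE 0.25), Txnrd1 (-0.53, SE 0.21), Gclc (-0.49, SE 0.26), Srxn1 (-0.34, SE 0.22) and Keap1 were lower in both treated libraries than in both controls, each with an adjusted P of 0.823 or 0.828. With Nfe2l2 on the higher side, 7 of 10 members had groups that did not overlap, against 38.9% of the 15428 genes tested. The median of the members was -0.37, against 0.03 over all genes. Of all genes 0% were called in either direction by edgeR, although 744 genes, 2 members among them, reached a P of 0.05 before adjustment, and DESeq2 called 60 genes and no member. Gsr (-0.19, SE 0.35), Prdx1 (0.16, SE 0.41) and Nqo1 (-0.39, SE 0.87) had standard errors larger than their differences.

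Leaving out either 3d/3d αMARCO library changed these counts. Without replicate 2, the one that stood apart, 571 genes (3.41%) were called, among them Gclm at -0.77 (adjusted P = 0.00461) and Prdx1 at -0.53 (adjusted P = 0.0279), the reverse of the direction of Prdx1 in the full comparison. In the same fit Slc7a11 was at -0.49, Srxn1 at -0.45, Txnrd1 at -0.40 and Gclc at -0.34, with adjusted P values of 0.0649 to 0.377, and the median of the members was -0.42. Keap1 was at -0.20, Gsr at -0.51 and Nqo1 at 0.37 there. Without replicate 1, 5500 genes (34.1%) were called, among them Nfe2l2, Nqo1, Gclc, Txnrd1, Slc7a11 and Prdx1, with Prdx1 at 0.62. In both of these fits 1 library stands for its group and is assumed to vary like the other group. In the other fit without replicate 2, which held the other 7 libraries in 1 model, 376 genes (2.12%) and no member were called.

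Under αMARCO, the direct comparison of WT with 3d/3d TAMs gave the largest differences of Gclc, Gclm, Txnrd1 and Slc7a11 among the 4 pairwise comparisons. Gclc was higher in WT by 0.97 (SE 0.22, adjusted P = 0.478), Txnrd1 by 0.82 (SE 0.20, adjusted P = 0.518), Gclm by 0.78 (SE 0.25, adjusted P = 0.676) and Slc7a11 by 0.62 (SE 0.25, adjusted P = 0.709) on the log2 scale. Srxn1 (0.43, SE 0.19), Gsr (0.41, SE 0.29) and Keap1 (0.10, SE 0.17) were on the same side. Nfe2l2 (-0.02, SE 0.21), Prdx1 (-0.33, SE 0.41) and Nqo1 (-0.96, SE 0.94) were on the other. The groups of Gclc, Gclm, Txnrd1, Srxn1, Slc7a11 and Keap1 did not overlap, 6 of 10 members against 44.3% of the 15722 genes tested, and the median of the members was 0.42 against -0.03. No gene was called in either direction (0% of all genes), 1076 genes and 3 members reached a P of 0.05 before adjustment, and DESeq2 called 215 genes and no member.

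Members were called when either 3d/3d αMARCO library was left out, and 3 of them, Gclc, Gclm and Txnrd1, in both cases. Gclc was called at 0.82 (adjusted P = 6.87e-05) without replicate 2 and at 1.16 (adjusted P = 6.17e-10) without replicate 1. Gclm was called at 0.996 (adjusted P = 0.000497) and 0.60 (adjusted P = 0.00134), and Txnrd1 at 0.69 (adjusted P = 4.12e-05) and 0.97 (adjusted P = 1.08e-10). Srxn1 was also called without replicate 2 (0.53, adjusted P = 0.00225), and Slc7a11 was at 0.51 (adjusted P = 0.549) there. Gsr was at 0.72, Keap1 at 0.087, Nfe2l2 at 0.15 and Nqo1 at -1.72 in the same fit, and the median of the members was 0.52. Prdx1 was called without replicate 1 at -0.78 and was at 0.34 without replicate 2, so its direction rests on which library is used. All genes called were 7.45% of those tested without replicate 2 and 38.6% without replicate 1, and the lone library of the group was again assumed to vary like the WT αMARCO pair. In the model of the 7 libraries other than replicate 2, 3.88% of genes were called, and of the members Gclm (0.996, adjusted P = 0.0439) and Txnrd1 (0.69, adjusted P = 0.00423).

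**Figure D3:**
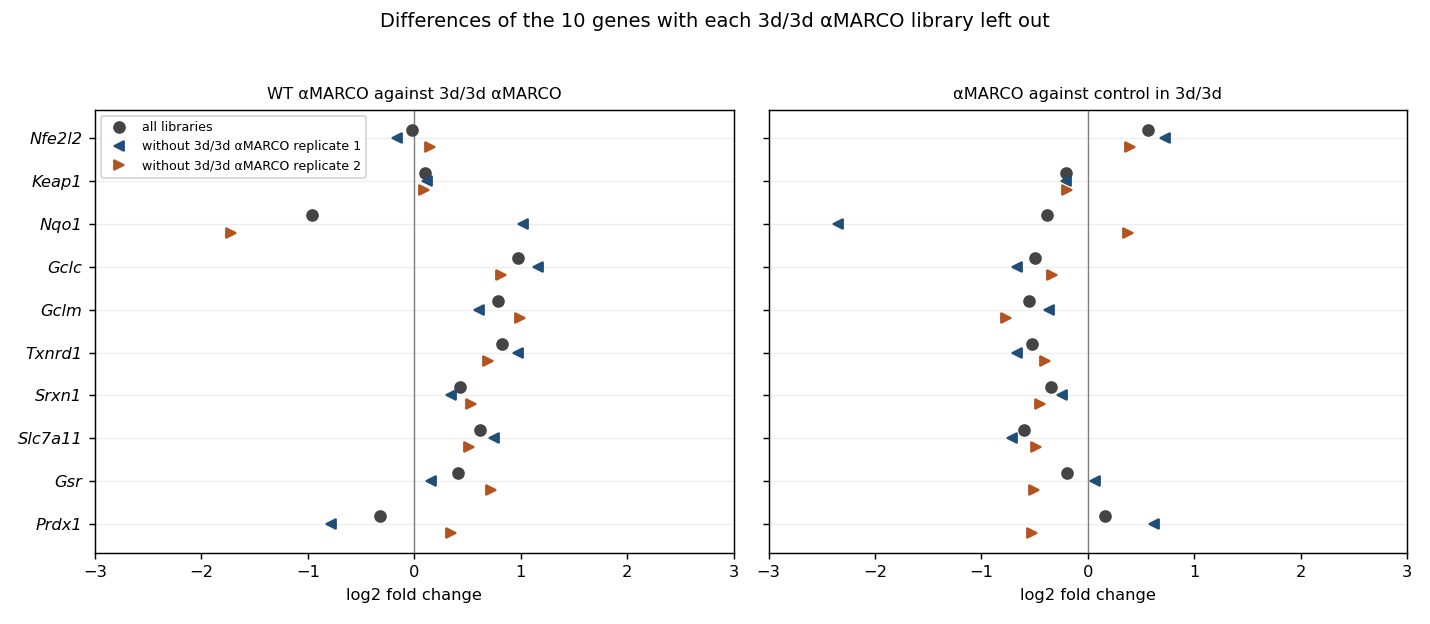
Log2 fold change of each gene with all libraries and with either 3d/3d αMARCO library left out, for WT αMARCO against 3d/3d αMARCO (left) and for αMARCO against control in 3d/3d (right). Gclc, Gclm, Txnrd1, Srxn1, Slc7a11, Gsr and Keap1 stay above 0 on the left in all 3 settings, while Prdx1, Nqo1 and Nfe2l2 change sides.

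Whether αMARCO acted differently on the members in the 2 genotypes was tested as the difference of the αMARCO effects in all 8 libraries. The difference (effect in WT minus effect in 3d/3d) was 0.97 for Slc7a11 (SE 0.32), 0.84 for Txnrd1 (SE 0.23), 0.77 for Gclc (SE 0.32) and 0.66 for Srxn1 (SE 0.25). These 4 members and 2549 of 16620 genes reached a P of 0.05 before adjustment. The adjusted P of each of the 4 was 0.318 by edgeR's quasi-likelihood test, and 0% of all genes were called. DESeq2 called 208 genes and no member. Gclm (0.54, SE 0.33), Gsr (0.49, SE 0.45) and Keap1 (0.09, SE 0.18) were also positive, and Nfe2l2, Prdx1 (-0.39, SE 0.46) and Nqo1 (-0.39, SE 1.08) negative. The median of the members was 0.51, against -0.04 over all genes. Txnrd1 was called without replicate 2 of 3d/3d αMARCO (0.70, adjusted P = 0.0285) and without replicate 1 (0.99, adjusted P = 0.000183). Gclc and Prdx1 were also called without replicate 1. In these 2 fits 3.45% and 36.4% of all genes were called. Without replicate 2, Slc7a11 was at 0.84 (adjusted P = 0.261), Srxn1 at 0.75 (adjusted P = 0.0837) and Gclc at 0.60 (adjusted P = 0.305). In the same fit Gclm was at 0.74, Gsr at 0.78, Keap1 at 0.071, Nfe2l2 at 0.014, Prdx1 at 0.27 and Nqo1 at -1.15, and the median of the members was 0.65. The comparisons share libraries, so the values of 1 gene in them are not separate evidence.

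Across the 8 libraries, log2 CPM of Gclc had the widest range of group means among the members with at least 10 counts in every library. The 5 genes with the closest pattern to Gclc by Pearson's r over the 8 libraries, among 16619 genes, were C3 (0.97), Fbxw11 (0.97), Slc25a35 (0.96), Txnrd1 (0.96) and Ticam1 (0.95). These values describe 8 libraries that fall into 4 groups and share differences in depth and makeup. Over the 7 libraries other than 3d/3d αMARCO replicate 2, the r of these 5 genes with Gclc was 0.92 to 0.96, and they ranked between 3 and 17 of the 16619 genes. Among the members, Nfe2l2 and Keap1 had an r of -0.84 over 8 libraries and -0.76 over 7. Nfe2l2 and Gclc had an r of -0.12 over 8 and 0.46 over 7, so the sign rests on that library.

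Other genes of the pathway were called in 2 comparisons, both of which use the WT control libraries. Of 29 other NRF2 targets tested, 8 were called higher and 2 lower in WT control than in 3d/3d control, where 6.58% of all genes were called higher and 6.4% lower. Gstp1, a glutathione transferase with near-identical copies, was higher by 1.41. It stood at only 1.07 to 4.00 CPM in the WT control, 3d/3d control and WT αMARCO libraries. Cbr3, a carbonyl reductase, was higher by 0.93 and Abcc4, an export pump, by 0.63. Abcc3, another export pump, was at -1.08 and Gstm1, a glutathione transferase, at -0.61. Under αMARCO in WT, 1 of 28 was called higher and 5 lower, with Abcc3 at 0.90, and Gstp1, Cbr3 and Taldo1, an enzyme of the pentose phosphate pathway, at -1.39, -1.05 and -0.62. Together 6 of 28 is close to the 20.7% of all genes called in that comparison. The median of this list was -0.02 in the first comparison and -0.09 in the second, next to -0.02 and 0.29 for the members.

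Of 19 regulators, Maff was called higher (0.65) and Mafg lower (-0.60) in WT control than in 3d/3d control, both of them genes of small MAF partners of NRF2. As a count, 2 of 19 is below the 13% of all genes called there. Under αMARCO in WT, 3 regulators were called higher and 0 lower, and 3 of 19 is below the 20.7% of all genes. These were Nfe2l3 (1.93, at 0.388 to 1.60 CPM in the 4 libraries compared), Mafg (0.86) and Crebbp (0.69), an acetyltransferase and coactivator. Mafg stood at 80.8 and 95.1 CPM in WT control, 157 and 160 in WT αMARCO, 132 and 132 in 3d/3d control and 167 and 195 in 3d/3d αMARCO. The WT control libraries were thus the lowest of the 8 for Mafg.

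Of 25 other antioxidant enzymes, 8 were called higher and 1 lower in WT control than in 3d/3d control, beside 6.58% and 6.4% of all genes. Txn1, thioredoxin, was counted in this list and among the other NRF2 targets. Sod1, the cytosolic superoxide dismutase, was at 0.93, Ggct, which breaks down glutathione intermediates, at 0.77 and Sod2, the mitochondrial superoxide dismutase, at 0.64, while Txnrd2, the mitochondrial thioredoxin reductase, was at -0.99. Under αMARCO in WT, 8 of 25 were called lower and 0 higher, beside 11.8% and 8.91% of all genes, led by Prdx4, a peroxiredoxin of the endoplasmic reticulum (-0.96), Sod1 (-0.94) and Gpx1, a glutathione peroxidase (-0.92). Of 17 genes answering to ATF4, which also drives Slc7a11, 3 were called higher in WT control, namely Nupr1 (1.08), Atf4 (0.67) and Mthfd2 (0.62), and 0 lower, where 13% of all genes were called in either direction. Under αMARCO in WT, Ddit4 alone was called, at -0.62, which is 1 of 17 where 20.7% of all genes were called. In the 2 other pairwise comparisons and in the difference of the αMARCO effects, no gene of these 4 lists was called. There 0% of all genes were called, so this says nothing about the lists.

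**Figure D4:**
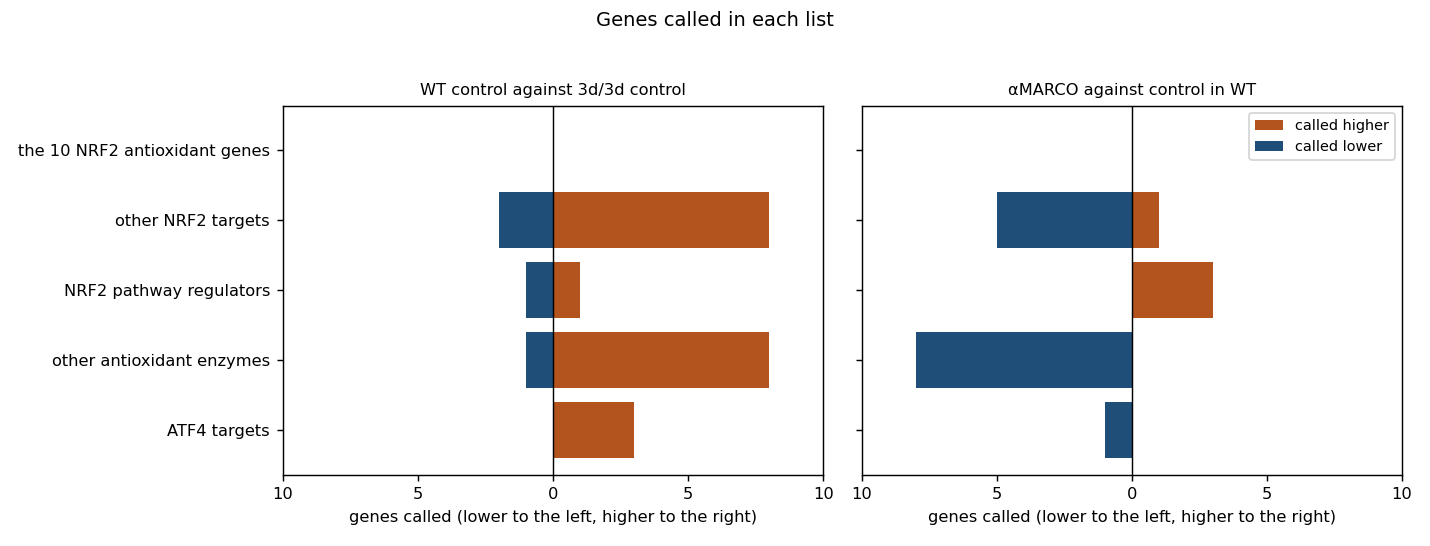
Number of genes called higher (to the right) and lower (to the left) in the 10 NRF2 antioxidant genes and in 4 related lists, for the 2 comparisons in which any gene was called. The 10 genes have no bar, while 8 other antioxidant enzymes are called higher in WT control than in 3d/3d control and 8 are called lower under αMARCO in WT.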

How the data were processed

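TAM libraries were made from poly-A mRNA and sequenced on an Illumina instrument. Per the labels, the authors' tools were fastp for trimming, HISAT2 2.0.5 for alignment to GRCm38 and featureCounts 1.5.0 for counting. The deposited raw counts per gene carry no normalization. Deposited FPKM values come from the authors' division of counts by gene length and a scaled library total (the methods name TPM). The deposited tables also hold gene lengths, used as given, and normalized values, group means, fold changes and P values by DESeq2 1.40.2, which were not used. The 3 tables were joined by gene identifier; 95230 counts present in more than 1 table did not differ (0 of them), and a gene missing from a table was set to 0.

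Tests were run in R 4.3.3 with edgeR 4.0.16 (TMM, filterByExpr with a minimum count of 10, quasi-likelihood test, Benjamini-Hochberg adjustment over all genes tested) on the 4 libraries of each comparison, and on all 8 for the difference of the αMARCO effects. Calls needed an adjusted P of 0.05 or less and a log2 fold change of 0.5 or more in either direction. CPM values use TMM-scaled totals, and log2 CPM a prior count of 2. DESeq2 1.42.0 and other settings were alternatives. The scripts were tested on simulated data. Depth was 15182618 to 26411936 counts; the floor of 3 counts covers counting error only. All 10 members are named, and from each related list up to 3 called genes per direction with non-overlapping groups, those with the largest changes. Members, lists and motifs were chosen with earlier results of these data known. Gene positions are those of the tables, equal to GENCODE M21 for all 10; promoter sequences are from RefSeq (GRCm38.p6).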

Additional observations from a re-analysis of the deposited data

How the results depend on the processing

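No member was called under DESeq2, DESeq2 size factors, a filter of at least 1 count or of at least 10 counts in every library, the fold threshold of 1, or the model of all 8 libraries. Nqo1 missed the filter of 10 counts in every library where 3d/3d αMARCO was used. With the adjusted P alone, 2 members and 5487 genes (35.1%) were called for αMARCO in WT. The threshold of 1 gave 951 genes between controls and 1366 for αMARCO in WT. The model of all 8 libraries gave 364, 164, 1 and 108 genes for the control comparison, αMARCO in WT, αMARCO in 3d/3d and WT αMARCO against 3d/3d αMARCO. DESeq2 gave 60, 215 and 208 genes for αMARCO in 3d/3d, WT αMARCO against 3d/3d αMARCO and the difference of the αMARCO effects, and the filter of 1 count 174, 107 and 152. Same-numbered libraries correlated from -0.0768 to 0.135 in their deviations, so the numbers were not taken as pairs. With the replicate block, 5 genes were called for αMARCO in 3d/3d, 97 for WT αMARCO against 3d/3d αMARCO, and no member in any comparison. The cause of these changes was not tested.

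Leaving out 1 library at a time, genes called ran from 1493 to 2450 between controls, 1940 to 3951 for αMARCO in WT, 1 to 5500 for αMARCO in 3d/3d, 17 to 6366 for WT αMARCO against 3d/3d αMARCO and 0 to 6440 for the difference of the effects, and members called from 0 to 1, 2, 6, 4 and 3. Without 3d/3d αMARCO replicate 2, the model of the other 7 libraries, added after seeing the data, called 376 genes for αMARCO in 3d/3d and 687 genes and 2 members for WT αMARCO against 3d/3d αMARCO. This model of 7 libraries also gave the upper end of the range of genes called between controls. It turned Keap1 between controls to 0.018, and Nqo1 and Prdx1 for αMARCO in 3d/3d to 0.37 and -0.53. For WT αMARCO against 3d/3d αMARCO it turned Nfe2l2 and Prdx1 to 0.15 and 0.35.

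Members that changed direction without 1 library had these ranges of log2 fold change. Between controls, Keap1 ran from -0.050 to 0.043, Gclc from -0.050 to 0.41, Gclm from -0.052 to 0.47, Txnrd1 from -0.15 to 0.088, Gsr from -0.46 to 0.38 and Prdx1 from -0.071 to 0.17, and with all 8 libraries in 1 model Keap1 was at 0.00275. For αMARCO in WT, Gclm ran from -0.26 to 0.27, and was at 0.00153 with DESeq2 size factors and 0.00517 with the filter of 10 counts in every library. For αMARCO in 3d/3d, Gsr ran from -0.54 to 0.28, Nqo1 from -2.35 to 0.37 and Prdx1 from -0.53 to 0.62. For WT αMARCO against 3d/3d αMARCO, Nfe2l2 ran from -0.17 to 0.15 (0.014 with the filter of 10 counts), Nqo1 from -1.72 to 1.02 and Prdx1 from -0.78 to 0.34. For the difference of the effects, Nfe2l2 ran from -0.29 to 0.014, Nqo1 from -1.15 to 1.60 and Prdx1 from -0.85 to 0.27. The r of Nfe2l2 with Gclc turned from -0.12 to 0.46 without 3d/3d αMARCO replicate 2, an alternative also added after seeing the data.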
